A study of Mus musculus with 6 samples.

Results

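Deep-layer projection neuron genes are described here in whole cortex taken from mouse embryos at E18.5, either wild-type or lacking both Sam68 and Slm2 (dKO). The 10 genes, Bcl11b, Tbr1, Fezf2, Foxp2, Sox5, Tle4, Crym, Ldb2, Nr4a2 and Zfpm2, were taken by symbol from the 59484 features of the deposited table as genes of layer V, layer VI and subplate identity. Each symbol matched 1 feature, and all 10 features were among the 18970 that passed a mean normalized count of at least 10 over the 6 libraries. RNA of whole cortex was sequenced from 3 wild-type and 3 dKO embryos, as poly(A)-selected stranded libraries read in 150 bp pairs. The mice were on a C57BL/6 background. The dKO embryos lacked Sam68 (Khdrbs1) and SLM2 (Khdrbs3), RNA-binding proteins of the STAR family that regulate splicing, in every tissue, and the labels name no treatment in either genotype. The dKO mice were bred from parents that were heterozygous for Sam68 and lacked Slm2, a cross that gives no wild-type embryos, and the labels do not name the litter or sex of an embryo, so the p-values measure the spread between these 6 samples. Values are normalized counts, that is, read counts divided by a size factor of the library.

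Projection neurons of the cortex are born in an inside-out order. The subplate and the deep layers form first, and the upper layers follow. Layer V holds the subcerebral neurons, whose axons reach the brainstem and spinal cord, and layer VI holds the corticothalamic neurons. A small network of transcription factors that restrain each other sets these fates: FEZF2 acts upstream of BCL11B (CTIP2) in subcerebral neurons, TBR1 directs corticothalamic identity and represses Fezf2, and SOX5 delays the subcerebral program in the earliest neurons.

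Per library, between 31837922 and 40896541 reads were assigned to features. Emx1, a homeobox gene that marks the dorsal telencephalon, was detected in every library, with normalized counts from 1125 to 1740. Khdrbs1 had a normalized count of 8213 ± 232 (SD, n = 3) in the wild-type and 152 ± 41.5 (SD, n = 3) in the dKO cortex, and Khdrbs3 fell from 13841 ± 1252 to 6652 ± 366 (limma, adjusted p = 0.000855), so reads of Khdrbs3 were still counted in the dKO embryos. Their paralog Khdrbs2 (SLM1) rose by 2.40 ± 0.11 (SE) on the log2 scale (limma, adjusted p = 4.58e-06). In the fit across all features (limma with Benjamini-Hochberg adjustment), 19 features passed an adjusted p of 0.05, which is 0.1% of those tested. The median log2 fold change of all features was 0.00.

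None of the 10 deep-layer genes (0 of 10) passed the adjusted threshold in limma, nor did any in edgeR or DESeq2 on the reads recovered from the table; DESeq2 called 1.07% of all features. At an unadjusted p of 0.05, limma gave 3 genes (Bcl11b, Fezf2 and Sox5), against 11.5% of all features. At that threshold edgeR gave 3 and DESeq2 gave 4, against 11.9% and 11.6% of all features. The log2 fold change was above 0 for 7 of the 10 genes, against 50.6% of all features, and its median over the 10 was 0.26. The 95% intervals of single genes ran from a fold of 0.52 at the lowest end to 1.82 at the highest, and no gene's difference reached 1.5-fold. In whole cortex, a change in the number of cells of a type and a change in RNA per cell cannot be told apart.

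**Figure D1:**
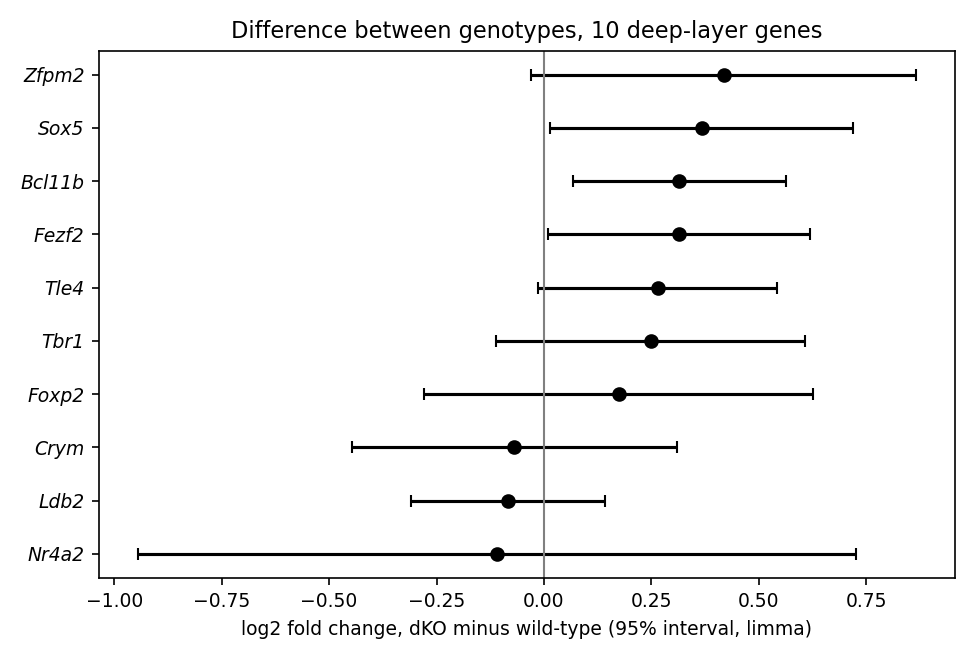
Log2 fold change of each deep-layer gene, dKO minus wild-type (horizontal axis), with its 95% interval from limma (3 libraries per genotype). The intervals of Bcl11b, Sox5 and Fezf2 lie above 0 without adjustment, those of the other 7 genes include 0, and the median of the 10 points is 0.26.

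Bcl11b and Fezf2, the regulators of layer V subcerebral neurons, were close to each other in the size of the difference. Bcl11b, which encodes the zinc-finger factor CTIP2, is feature GSMG0009287 on chromosome 12, from 107910403 to 108003414 of mm10, on the minus strand. Its normalized counts were 1297, 1248 and 1619 in wild-type libraries 1 to 3 and 1859, 1665 and 1630 in dKO libraries 1 to 3. Every dKO library was above every wild-type library, but the lowest dKO value exceeded the highest wild-type value by only 10.3 normalized counts, and wild-type 3 stood apart from the other two wild-type libraries. The means were 1388 ± 202 and 1718 ± 124 (SD, n = 3), a log2 fold change of 0.31 ± 0.11 (SE), with an adjusted p of 0.368 in limma. Bcl11b was the only one of the 10 genes whose genotypes did not overlap, against 7.89% of all features with the dKO libraries higher and 16.4% in either direction, a share near the background. With 3 embryos against 3, an exact permutation test cannot give a p below 0.1, the value Bcl11b reached.

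Fezf2, the zinc-finger gene that selects subcerebral fate, is feature GSMG0012040 on chromosome 14, from 12341892 to 12345865, on the minus strand. Its normalized counts were 2042, 2647 and 2528 in the wild-type and 3373, 2427 and 3206 in the dKO cortex. Libraries dKO 1 and dKO 3 were above all wild-type libraries, and dKO 2 lay among them. The log2 fold change was 0.31 ± 0.14 (SE), with a 95% interval from 0.01 to 0.62 and an adjusted p of 0.423 (limma).

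The promoters of Bcl11b, Fezf2 and Tbr1 are shown because these 3 factors stand for the layer V and layer VI programs that the ratio given later compares. Each sequence is the 250 bases before the gene's start, from RefSeq on GRCm38.p6, 5′ to 3′ on the gene's own strand, and capitals mark a match to one of 4 motifs searched on both strands.
Bcl11b, chr12:108003415-108003664, minus strand: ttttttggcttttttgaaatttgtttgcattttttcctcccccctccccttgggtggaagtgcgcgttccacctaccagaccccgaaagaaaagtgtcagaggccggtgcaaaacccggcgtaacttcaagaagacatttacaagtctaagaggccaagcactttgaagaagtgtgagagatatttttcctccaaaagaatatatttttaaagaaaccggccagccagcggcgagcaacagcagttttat
Fezf2, chr14:12345866-12346115, minus strand: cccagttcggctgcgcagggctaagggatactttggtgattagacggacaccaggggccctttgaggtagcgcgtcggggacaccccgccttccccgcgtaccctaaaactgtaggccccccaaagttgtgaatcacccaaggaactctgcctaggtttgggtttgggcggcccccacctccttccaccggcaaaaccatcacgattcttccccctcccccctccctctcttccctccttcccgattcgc
Tbr1, chr2:61804203-61804452, plus strand: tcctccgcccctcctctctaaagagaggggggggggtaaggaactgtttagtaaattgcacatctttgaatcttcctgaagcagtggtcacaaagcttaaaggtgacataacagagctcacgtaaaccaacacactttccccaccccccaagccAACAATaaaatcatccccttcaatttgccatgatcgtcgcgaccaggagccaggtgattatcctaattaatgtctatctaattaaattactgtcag
The motifs were the T-box half-site TCACACC, the SOX core AACAAT, the E-box CAGATG and the TATA box TATAAA, which were found in 3.33%, 9.42%, 14.4% and 12.4% of the 32851 promoter windows of that length. Tbr1 held 1 match, to the SOX core, and the windows of Bcl11b and Fezf2 held no match, which says only that these letters are not in these windows. The GC content was 44.8% for Bcl11b, 61.2% for Fezf2 and 45.2% for Tbr1, beside a median of 52.4% over all windows. The promoter table held 6 of the 10 genes; the other 3 of them were Nr4a2, Sox5 and Tle4.

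Crym and Ldb2 mark layer V neurons without selecting their fate. Crym encodes a thyroid hormone-binding protein of subcerebral neurons (feature GSMG0036597, chromosome 7, 120186384 to 120201988, minus strand). The wild-type libraries had normalized counts of 1091, 1193 and 1590 and the dKO libraries 1310, 1420 and 965. The highest value was wild-type 3 and the lowest dKO 3, with wild-type 1 and 2 below dKO 1 and 2 between them, so the genotypes overlapped, and the log2 fold change was -0.07 ± 0.17 (SE; limma, adjusted p = 0.896). Ldb2 encodes an adaptor that links LIM-domain transcription factors (feature GSMG0030443, chromosome 5, 44472133 to 44799746, minus strand). Its normalized counts were 3029, 3266 and 3017 in the wild-type and 2826, 2611 and 3396 in the dKO cortex. The wild-type libraries of Ldb2 were the tightest group of the set, with a coefficient of variation of 4.53%, and all lay inside the dKO range. The log2 fold change was -0.08 ± 0.10 (SE), with a 95% interval from -0.31 to 0.14, which is a fold of 0.807 to 1.10 (adjusted p = 0.766).

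**Figure D2:**
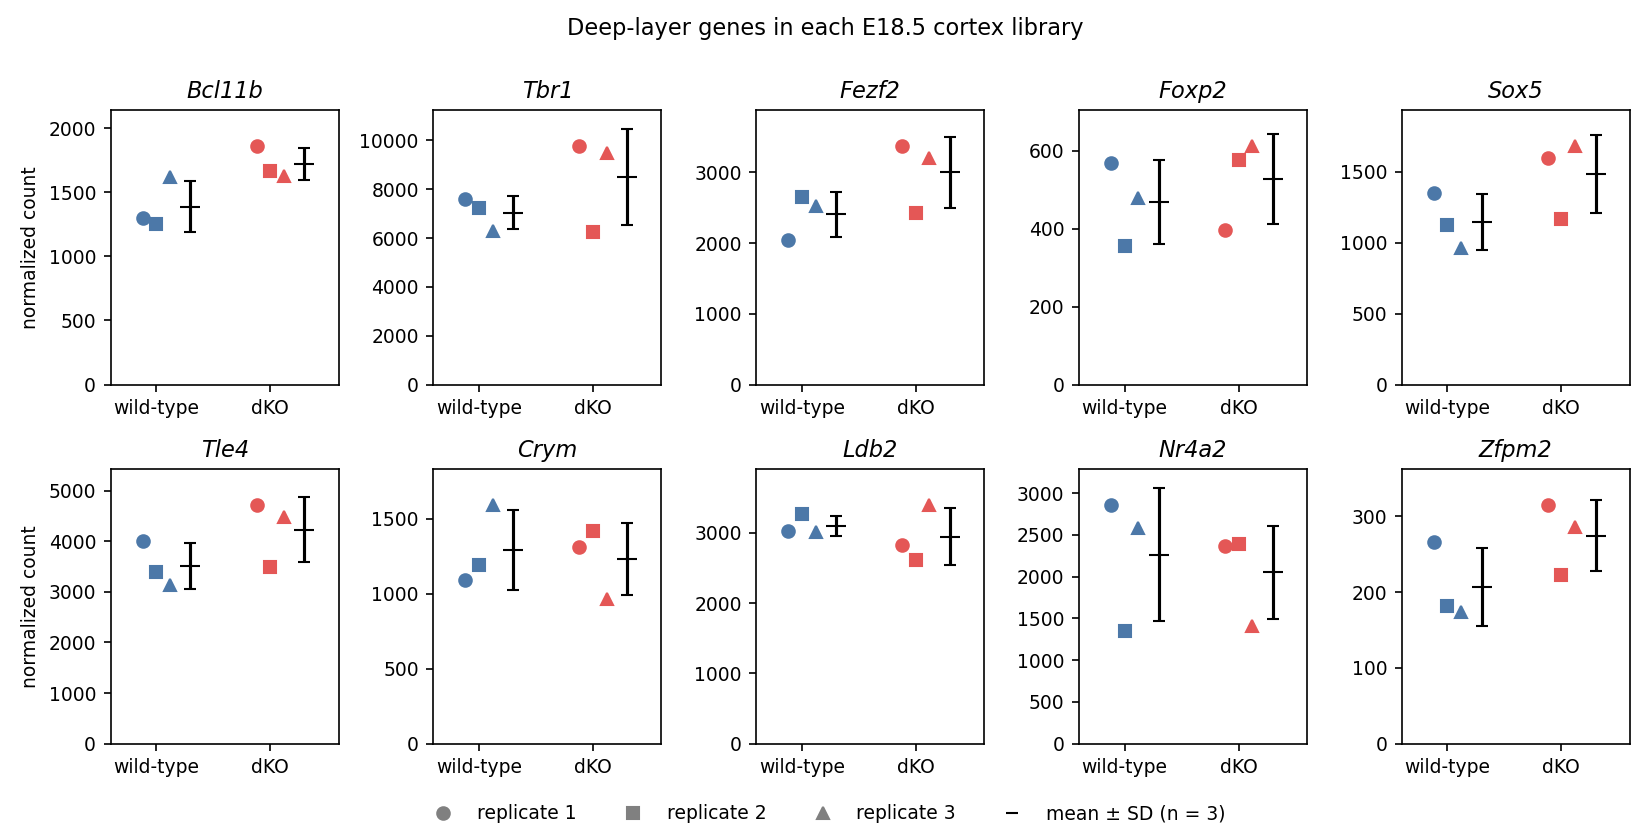
Normalized count (vertical axes, each starting at 0) of the 10 genes in each library, wild-type in blue and dKO in red, with marker shape giving the replicate and black bars the mean ± SD (n = 3). In Fezf2, Sox5, Tle4 and Zfpm2 the squares of dKO 2 lie within the wild-type range, in Tbr1 just below it, and in all 5 genes dKO 1 and dKO 3 lie above it, and in Bcl11b all 3 dKO libraries lie above the wild-type.

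Tbr1, Sox5, Tle4 and Zfpm2, genes of layer VI and early-born neurons, shared an arrangement of libraries, which is given as a description. The arrangement, with dKO 1 and dKO 3 above all wild-type libraries and dKO 2 not, was not particular to these genes. Fezf2 of layer V had it too, as did Sox4, Sox11, Neurod2, the upper-layer gene Pou3f2 and the pan-neuronal genes Map2 and Dcx. So did the fate regulators Nfia and Nfib, the intermediate progenitor gene Eomes and the upper-layer gene Unc5d. The genes named here are examples, picked after their values were seen. Some further genes of the lists described below had the arrangement, and others did not. Tbr1, the T-box factor of corticothalamic neurons, is feature GSMG0043799 on chromosome 2, from 61804453 to 61814114, on the plus strand. Normalized counts of Tbr1 were 7602, 7213 and 6284 in the wild-type and 9766, 6240 and 9481 in the dKO cortex. Libraries dKO 1 and dKO 3 were the highest of the 6 and dKO 2 was the lowest. The mean was 7033 ± 677 in the wild-type and 8495 ± 1959 in the dKO cortex (SD, n = 3), and the log2 fold change of 0.25 ± 0.16 (SE) had an adjusted p of 0.572 (limma).

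Sox5, a SOX factor that times the birth-order program of deep-layer neurons, is feature GSMG0033867 on chromosome 6, from 143828425 to 144209568, on the minus strand. Its normalized counts were 1352, 1124 and 958 in the wild-type and 1594, 1166 and 1679 in the dKO cortex. Only dKO 2 lay within the wild-type range, and the log2 fold change was 0.37 ± 0.16 (SE), with a 95% interval from 0.01 to 0.72 and an adjusted p of 0.419 (limma). Tle4, a Groucho-family corepressor of corticothalamic neurons, is feature GSMG0020146 on chromosome 19, from 14448072 to 14598183, on the minus strand. For Tle4 the wild-type values were 4000, 3392 and 3126 and the dKO values 4711, 3497 and 4470 normalized counts. Again dKO 2 lay among the wild-type libraries and the other two dKO libraries above them, and the log2 fold change was 0.27 ± 0.13 (SE; limma, adjusted p = 0.452).

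Zfpm2, which encodes the GATA cofactor FOG2 and is used as a marker of corticothalamic neurons, is feature GSMG0013142 on chromosome 15, from 40655033 to 41104592, on the plus strand. Zfpm2 was counted at 266, 182 and 174 normalized counts in the wild-type and at 315, 223 and 286 in the dKO cortex. It had the largest log2 fold change of the 10 genes, 0.42 ± 0.20 (SE), with a 95% interval from -0.03 to 0.87 and an adjusted p of 0.462 (limma). It also had the fewest reads, 169 in its lowest library. Foxp2, a forkhead factor of layer VI neurons, is feature GSMG0051003 on chromosome 6, from 14901349 to 15441977, on the plus strand. Foxp2 had 569.7, 355.5 and 479.6 normalized counts in the wild-type and 395.7, 576.2 and 612.4 in the dKO cortex. Foxp2 did not share the arrangement of Tbr1, Sox5, Tle4 and Zfpm2, since dKO 1 was its lowest dKO library. Its log2 fold change was 0.17 ± 0.20 (SE), with an adjusted p of 0.758 (limma).

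Nr4a2 (NURR1), an orphan nuclear receptor of subplate neurons and of the claustrum that also responds to neuronal activity, is feature GSMG0022829 on chromosome 2, from 57107226 to 57124141, on the minus strand. The wild-type libraries held 2856, 1353 and 2583 normalized counts and the dKO libraries 2365, 2386 and 1408. The low libraries were 1 of each genotype, wild-type 2 and dKO 3, and the other four were close together. This made Nr4a2 the most variable of the 10 genes, with a coefficient of variation of 35.4% in the wild-type and 27.2% in the dKO cortex, while counting alone would give 2.04% and 2.22%. The log2 fold change was -0.11 ± 0.34 (SE), with a 95% interval from -0.94 to 0.73 (limma, adjusted p = 0.925).

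Some other genes were also low in wild-type 2 and dKO 3, and they are named here after their values were seen. Ctgf, a secreted factor and classic subplate marker, was at 95.6 normalized counts in wild-type 2, at 105.5 in dKO 3 and at 143 to 224 in the other four libraries. Cplx3, a complexin of subplate neurons, had 12.9 and 4.64 in these libraries and 20.0 to 66.6 in the others. Tshz2, a zinc-finger gene of layer V, had 1305 and 749 there and 1813 to 2515 elsewhere. Of the 9 other subplate genes tested, 4 (Ctgf, Cplx3, Abca8a and Svil) had their lowest value of each genotype in wild-type 2 and dKO 3. Another 3 (Lpar1, Tmem163 and Cdh10) had their highest value there, so the subplate genes did not move together in these libraries. The summed normalized count of the list was 3542 in wild-type 2 and 3459 in dKO 3, and 3047 to 3600 in the other libraries. Cdh10 was the largest part of this sum, with 2087 in wild-type 2 and 1811 in dKO 3, so the sum says little about the less abundant genes. The summed normalized count of 8 immediate early genes was 3204, 2918 and 4398 in wild-type 1 to 3. It was 3767, 3642 and 3603 in dKO 1 to 3, so dKO 3 was the lowest dKO library only by a small margin. The part of neuronal activity in the level of Nr4a2 was not tested.

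Per kilobase of exon, the scale on which genes can be compared with each other, the wild-type levels ran from Tbr1, with 1282 ± 123 normalized counts per kilobase, through Ldb2, with 930.5 ± 42.2, Fezf2, with 789.5 ± 105, and Tle4, with 614.9 ± 78.6, to Nr4a2, with 557.8 ± 197 (SD, n = 3). Crym followed with 380.9 ± 77.8, Bcl11b with 171.2 ± 24.9, Sox5 with 79.6 ± 13.8, Foxp2 with 28.6 ± 6.58 and Zfpm2 with 21.7 ± 5.39. The libraries of neighbouring genes overlapped between Fezf2 and Tle4, between Tle4 and Nr4a2, between Nr4a2 and Crym, and between Foxp2 and Zfpm2, so their order is not fixed by the data. Exon length was the union of all annotated exons of a gene, 16346 bases for Foxp2 and 3047 bases for Fezf2 at the extremes.

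**Figure D3:**
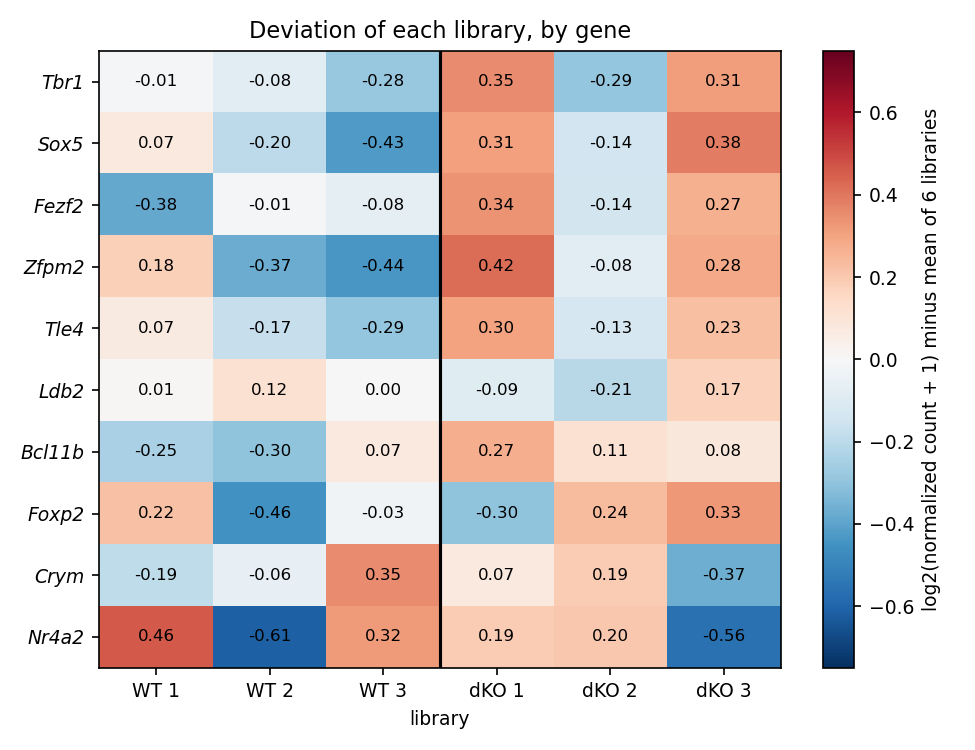
Deviation of each library (columns) from the mean of the 6 libraries on the scale of log2(normalized count + 1), for each gene (rows), with wild-type libraries left of the line and dKO libraries right of it. Tbr1, Sox5, Fezf2, Zfpm2 and Tle4 are positive in dKO 1 and dKO 3 and negative in dKO 2, and Nr4a2 is lowest in wild-type 2 and dKO 3.

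The dKO libraries did not form a tight group for these genes. Library dKO 2 was the lowest dKO library for 6 of the 10, namely Tbr1, Fezf2, Sox5, Tle4, Zfpm2 and Ldb2. The median deviation of the 10 genes from their 6-library mean was 0.29 on the log2 scale in dKO 1, -0.10 in dKO 2 and 0.25 in dKO 3, beside 0.04, -0.18 and -0.05 in wild-type 1 to 3, and the medians of all features were near 0 in every library. With 1 library left out, genotypes that do not overlap are more frequent among all features too. Without dKO 2, 6 of the 10 genes did not overlap between genotypes (Tbr1, Fezf2, Sox5, Tle4 and Zfpm2 in addition to Bcl11b), against 30.2% of all features, and 6 passed an unadjusted p of 0.05, against 12.2%, but none passed the adjusted threshold (limma). Without dKO 1, 0 of the 10 passed an unadjusted p of 0.05, against 11.9% of all features, and 1 did without dKO 3, against 6.43%, or without wild-type 2, against 14.3%. Without wild-type 1, 4 of the genes did not overlap, against 26.6% of all features. The count was 2 without dKO 1, dKO 3 or wild-type 2, against 29.5%, 22.3% and 33.0% of all features. The spread between embryos was 2.57 to 21.0 times the counting error of the same gene, so counting error was the smaller part of it. The rank correlation of a library's deviation with exon length over the tested features was 0.31 in dKO 1, 0.22 in wild-type 1 and between -0.23 and -0.10 in the other four libraries; its part in the levels was not tested, and with this trend removed 5 of the genes had an unadjusted p under 0.05, against 13.0% of all features, and 0 were free of overlap, against 17.7%.

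A ratio within a library does not depend on how that library was scaled. The log2 ratio of Tbr1 to Bcl11b, layer VI against layer V, was 2.55, 2.53 and 1.96 in the wild-type and 2.39, 1.91 and 2.54 in the dKO cortex. Each genotype held 1 low library, wild-type 3 and dKO 2, and the difference of -0.07 had an exact two-sided permutation p of 0.6; it was above 0 without dKO 2, wild-type 1 or wild-type 2.

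Other genes of the same layers were described from lists. Of 10 other layer V genes tested, none passed the adjusted threshold. An unadjusted p under 0.05 was found for 3 of them, all with lower dKO levels, against 11.5% of all features. The median log2 fold change of the list was -0.34. Etv1, an ETS factor of layer V, had normalized counts of 704, 591 and 736 in the wild-type and 547, 516 and 482 in the dKO cortex. Its genotypes did not overlap, and its log2 fold change was -0.39 ± 0.12 (SE; limma, adjusted p = 0.335). The other two were Ntng1, a netrin-G axon protein, with -0.75 ± 0.30, and Cntn6, a contactin adhesion molecule, with -0.55 ± 0.24 (log2 fold change ± SE). The median of this list and the fold changes of Bcl11b and Fezf2 thus had opposite signs, and that difference was not tested.

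Of 8 other layer VI genes, none passed the adjusted threshold and 1, the ligand gene Wnt7b, had an unadjusted p under 0.05, with a log2 fold change of 0.22 ± 0.09 (SE); the median was -0.03. Of 9 other subplate genes, none passed and 1, the monooxygenase-like gene Moxd1, had an unadjusted p under 0.05, with -0.79 ± 0.29; the median was -0.27. Pooled, the 27 other deep-layer genes had 1 gene with a higher and 4 with a lower dKO level at an unadjusted p under 0.05, 18.5% of them against 11.5% of all features. Their log2 fold change was above 0 for 8 genes and below 0 for 19. Their summed level was 52695 to 57272 normalized counts in the wild-type and 54713 to 57678 in the dKO cortex, and these ranges overlapped. Most of this sum came from the layer VI list, with 36169.5 to 39905.5 in the wild-type and 38486.5 to 41759.3 in the dKO cortex. The layer V list had 12983 to 14136 and 12460 to 13127, so the pooled sum says little about it.

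**Figure D4:**
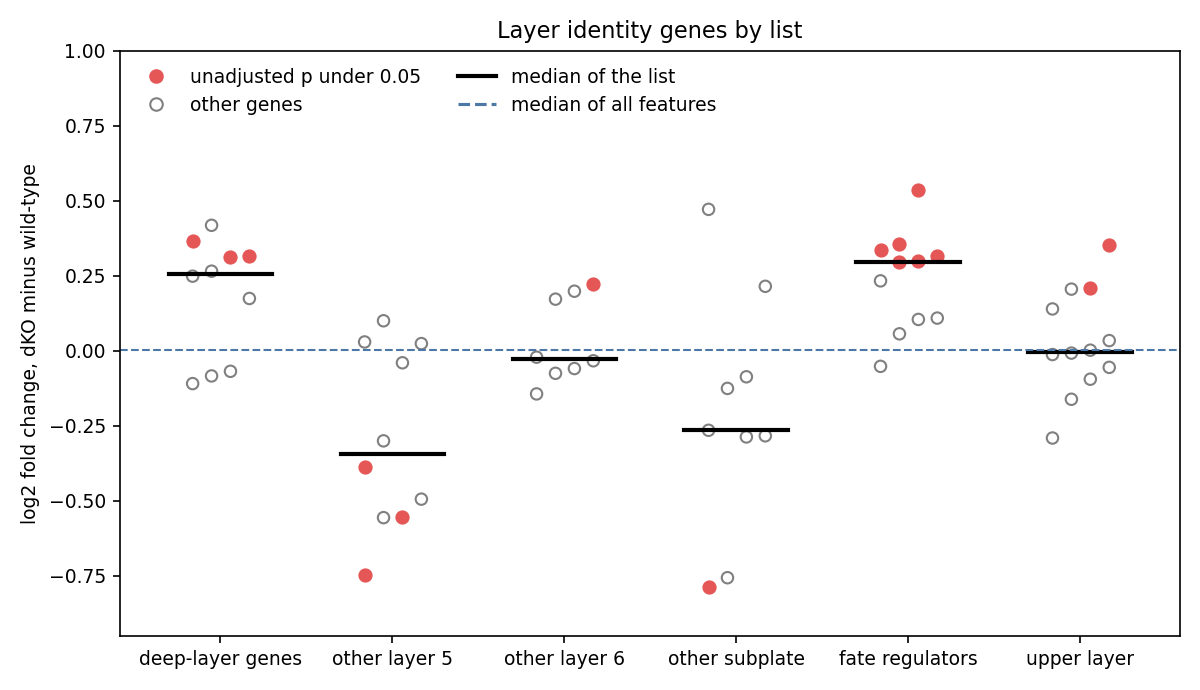
Log2 fold change, dKO minus wild-type (vertical axis), of each tested gene in 6 lists, with filled red points for an unadjusted limma p under 0.05, black bars for the median of a list and the dashed line for the median of all features. The medians are 0.26 for the 10 deep-layer genes, -0.34 for other layer V genes, -0.03 for other layer VI genes, -0.27 for other subplate genes, 0.30 for fate regulators and -0.0031 for upper-layer genes.

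The 11 regulators of projection neuron fate tested, which act in deep and upper layers alike, had a median log2 fold change of 0.30. None passed the adjusted threshold in limma and 1 did in DESeq2. An unadjusted p under 0.05 in limma was found for 6, all with higher dKO levels, against 11.5% of all features. Emx1 had normalized counts of 1127, 1329 and 1125 in the wild-type and 1706, 1734 and 1740 in the dKO cortex. All dKO libraries lay above the wild-type libraries, and the log2 fold change was 0.54 ± 0.09 (SE; limma, adjusted p = 0.0900). Sox4, a SOX factor of new-born neurons, had 0.33 ± 0.11, and Neurod2, a bHLH factor of excitatory neurons, had 0.31 ± 0.11 (log2 fold change ± SE). The 12 upper-layer genes tested had a median of -0.0031, and 2 had an unadjusted p under 0.05, the homeobox gene Cux1 with 0.21 ± 0.08 and the POU factor gene Pou3f2 with 0.35 ± 0.15.

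Marker lists of other cells were read beside these levels, and none of their genes passed the adjusted threshold in limma or edgeR. The counts at an unadjusted p under 0.05 stand beside 11.5% of all features (limma). Of 7 intermediate progenitor genes, 5 had an unadjusted p under 0.05, all with higher dKO levels, and their summed normalized count was 8466 to 11244 in the wild-type and 11869 to 15161 in the dKO cortex, highest in dKO 1 and lowest among the dKO libraries in dKO 2, the order of dKO libraries also seen for Tbr1, Fezf2, Tle4 and Zfpm2. Btg2, Insm1 and Neurog2 had log2 fold changes of 0.49, 0.48 and 0.95, and Btg2 and Insm1 passed in DESeq2 (adjusted p = 0.0241 for both, with ranges of 0.0241 to 0.650 and 0.0241 to 0.678 over the alternatives). Of 4 oligodendrocyte lineage genes, Olig1, Pdgfra and Olig2 had an unadjusted p under 0.05 with lower dKO levels, and the sum was 6600 to 11467 in the wild-type and 3592 to 6205 in the dKO cortex, lowest within each genotype in wild-type 2 and dKO 3, as for Nr4a2. Pdgfra passed in DESeq2 (adjusted p = 0.0475, in a range of 0.0475 to 0.777). Of 7 pan-neuronal genes, 3 had an unadjusted p under 0.05 with higher dKO levels, Tubb3, Map2 and Dcx, with log2 fold changes of 0.18 to 0.20. The other 4 had log2 fold changes below 0 and the median of the list was -0.01, while the sum, most of which was Tubb3, was 244540 to 263067 in the wild-type and 270047 to 283623 in the dKO cortex. Of 8 radial glia genes, Pax6 and Vim had higher dKO levels at that threshold, 4 had log2 fold changes below 0, among them Hes5 with -0.51 and Slc1a3 with -0.39, which did not pass it, and the median was 0.04. The radial glia sums were 41635 to 53172 and 43246 to 53012. Of 7 endothelial genes, Flt1 and Kdr had lower dKO levels, with sums of 5843 to 7909 and 5894 to 6683 (Flt1 passed in DESeq2, adjusted p = 0.0241, in a range of 0.0241 to 0.739), and of 5 meningeal genes Dcn did, with sums of 361 to 1255 and 375 to 434.

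Bcl11b is also expressed by striatal projection neurons, and Foxp2 by striatal and thalamic neurons. None of the 11 striatal genes, 10 interneuron genes, 2 thalamic genes, 4 dentate gyrus genes, 5 Cajal-Retzius genes, 7 microglia genes, 4 erythroid genes and 2 choroid plexus genes tested had an unadjusted p under 0.05. The summed striatal level was 11735 to 13072 normalized counts in the wild-type and 12253 to 13399 in the dKO cortex, and the summed thalamic level was 88.1 to 141 and 111 to 150. The summed interneuron level was highest within a genotype in wild-type 3, with 19688, and in dKO 2, with 17486, and lowest in dKO 1, with 12227. Among the immediate early genes, Dusp1 had a log2 fold change of 0.30 and Npas4 of -1.81 at an unadjusted p under 0.05. The part of these cell types in the levels of the deep-layer genes was not tested.

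Features without a symbol overlapped 9 of the 10 genes. Of these 49 features, 28 were at 0 in every library and 3 had a mean of at least 10, a pair at Tbr1 and 1 at Fezf2, with the largest of the rest at 4.87. The strand setting of the counting is not given in the sources used here, so reads of these features and of their host genes may not be fully apart.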

How the data were processed

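Cortices of 3 wild-type and 3 dKO embryos were grouped by their genotype labels. The authors deposited a table of signal values per FASTDB feature, read counts divided by DESeq2 size factors; the submitters' processing notes name mm10 and STAR 2.7.5a, and the counting program is not given in the sources used here. The value of 1 read in each library (0.877 to 1.16) gave whole reads for 100% of the values (tolerance 0.001). Log2(normalized count + 1) was fitted with limma 3.58.1 in R 4.3.3 (trend and robust; Benjamini-Hochberg; threshold 0.05) over features whose mean reached 10, so fold changes are on that scale and understate the change of low genes. On the recovered reads, edgeR 4.0.16 called 16 features and DESeq2 1.42.0 called 202, against 19 in limma. Scripts were tested on simulated data. Exon length, GC content and strands came from the GENCODE annotation of the same build, and had values for 97.8% of the tested features with a symbol. The share of reads in features without a symbol was 8.48 to 9.62%. The 95% intervals cover the spread between libraries; the counting errors given beside the coefficients of variation cover counting error only. The members and lists were chosen with earlier results of these data known. Named genes were the 10 members, the targeted genes and Khdrbs2. Of each other list they were the features with an adjusted p under 0.05 or otherwise at most 3 with the smallest unadjusted p under 0.05. Genes named outside this rule, among them Sox11, Hes5 and Slc1a3, were named with their values known. Listed genes without a feature of that symbol (Pcp4, Neurod1, Pou3f3, Hbb-bs, Hbb-bt and Junb) were not analysed here, and 1 planned ratio with its partner gene is not reported here. Numbers in the labels of the libraries were not used as pairs in the main fit. Alternatives covered the pseudocount, the low-value filter, the scaling, the count tools, the replicate block and leaving out each library; removal of length and GC trends was chosen after seeing the data.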

Additional observations from a re-analysis of the deposited data

How the results depend on the processing

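The direction of all 10 genes held under every alternative that kept all 6 libraries, and none passed an adjusted p of 0.05 under any alternative. Their median log2 fold change ran from 0.20 with quantile normalization to 0.27 with edgeR, and from 0.19 to 0.37 when each library was left out in turn. Over all features, 19 calls became 202 with DESeq2, 4 with the GC trend removed, 9 with the length trend removed, 7 without trend and robust, and 7 (without dKO 3) to 46 (without dKO 1) with 1 library left out, in between being 8 without wild-type 1, 9 without dKO 2, 10 without wild-type 3 and 29 without wild-type 2. The count of 3 genes at an unadjusted p under 0.05 became 5 with the length trend removed, against 13.0% of all features. It became 0 without trend and robust, against 9.88%, and ran from 0 to 6 with 1 library left out, against 6.43% to 14.3%. The count of 1 gene without overlap became 0 with the GC trend removed, with the length trend removed and with quantile normalization. The share of all features without overlap was then 16.1%, 17.7% and 14.8%. With 1 library left out the count of genes ran from 1 to 6, when 22.3% to 33.0% of all features did not overlap. The Tbr1 to Bcl11b difference ran from -0.26 to 0.121, with values above 0 of 0.0364 and 0.0263 as well, with 1 library left out. Leaving out 1 library reversed the log2 fold change of Foxp2 (range -0.0108 to 0.37), Crym (-0.18 to 0.10) and Nr4a2 (-0.44 to 0.14). Khdrbs3 kept its log2 fold change of -1.05 without trend and robust but had an adjusted p of 0.0891, in a range up to that value over its alternatives. For results that moved, the cause was not tested.

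The labels do not say whether the replicate numbers pair the samples. Same-numbered libraries had correlations of their deviations from the mean of their genotype of 0.10, -0.23 and -0.08. With 3 libraries per genotype, these values cannot exclude a shared batch. With the replicate block, 9 features were called in place of 19. An unadjusted p under 0.05 was reached by 4 of the 10 genes in place of 3, against 12.2% of all features. None of the 10 passed after adjustment.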
